A study of Homo sapiens with 8 samples.

Results

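The genes described here encode the tubulins, the subunits of cytoplasmic dynein and dynactin, and the heavy and light chains of kinesin-1. They were chosen by symbol alone from the deposited count table, as the named α-, β- and γ-tubulins, the DYNC, DYNLL, DYNLT, DYNLRB and DCTN families, KIF5A, KIF5B, KIF5C and the KLC family. Pseudogenes and names with a hyphen were left out, which removed TUBA3FP, DCTN1-AS1 and DYNLL1-AS1. The choice gave 46 of 25369 genes, of which 39 passed the filter on low counts and could be tested.

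Microtubules are polymers of α- and β-tubulin dimers, and γ-tubulin in ring complexes seeds their growth at the centrosome. Dynein, which needs its cofactor dynactin, carries cargo towards the minus end of a microtubule, and kinesin-1 carries cargo towards the plus end. SUN2 spans the inner nuclear membrane and binds nesprins of the outer membrane, and nesprin-2 can bind both motors, so that microtubule forces reach the nucleus through this link.

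The cells were MDA-MB-231, a line grown from a triple-negative breast cancer, and their RNA was sequenced in 4 groups of 2 libraries. Wild type (WT) was set against a SUN2 knockout (SUN2KO) and against 2 truncations of SUN2. The truncation Kashlid lacks residues 569 to 585 and was meant to sever the tie to Nesprin-2G, and the truncation LBD lacks residues 1 to 139, where lamins bind. The labels do not say how the truncated proteins were introduced, whether the cells that carry them still hold intact SUN2, or whether a line is a single clone. Nor do they say whether a group's libraries came from different cultures, and each p-value therefore reflects the scatter of these libraries alone, which can be technical.

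Total counts were 16570099 to 18814795 per library. SUN2 mRNA was lower than in WT by log2 fold changes of -1.56 in SUN2KO, -1.19 in Kashlid and -1.30 in LBD. All 8 genes listed as high in MDA-MB-231 were detected (summed level 1932 and 1990.3 CPM, the count normalised to library size, in WT and 1579 to 1889 in the other libraries), and 4 of them fell in each altered line while 2 rose in LBD. Of 5 genes listed as absent from the line, ERBB2 was at a mean of 52.5 CPM. The others, ESR1, PGR, CDH1 and GATA3, reached at most 1.68 CPM in any library. Of the 5, 4 were tested, and 1 rose in SUN2KO and 1 in Kashlid. The 6 HEK293 markers summed to 6.48 to 11.4 CPM, nearly all of it INA, with GPC3 at 0. Another of these, LIN28B, had 0 counts in both WT libraries and 6 to 17 counts in each of the 6 altered ones, and it rose in each line. Its part in the results was not tested. The 2 Kashlid libraries differed more from each other than the libraries of the other groups (chi-square per degree of freedom 5.46, against 2.48 to 3.38). In bulk RNA, fewer cells expressing a gene and less RNA per cell cannot be told apart.

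Against WT, the share of members that fell was above that of all genes in Kashlid and LBD and near it in SUN2KO. In SUN2KO, 4 of 39 tested members rose (10.3%) and 7 fell (17.9%), fewer calls than the 36.7% of all 14016 tested genes that passed (17.5% higher and 19.1% lower). In Kashlid 5 rose (12.8%) and 17 fell (43.6%), where 44.5% of all genes passed, 21.7% higher and 22.7% lower. In LBD 4 rose (10.3%) and 12 fell (30.8%), where 40% of all genes passed, 19% higher and 21% lower. The median log2 fold change of the tested members was -0.03 in SUN2KO, -0.08 in Kashlid and -0.04 in LBD, beside medians of 0.00, 0.01 and 0.00 over all genes. At a fold change of at least 1.5 as well, 5 members were called in SUN2KO, 6 in Kashlid and 3 in LBD, beside 10.3%, 14% and 12.1% of all genes. No member reached it between the altered lines, where 4.67% of all genes did for Kashlid against SUN2KO, 3.85% for LBD against SUN2KO and 0.421% for LBD against Kashlid. "Rose" and "fell" here mean a Benjamini-Hochberg adjusted p under 0.05 in edgeR's quasi-likelihood test, over all tested genes.

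**Figure D1:**
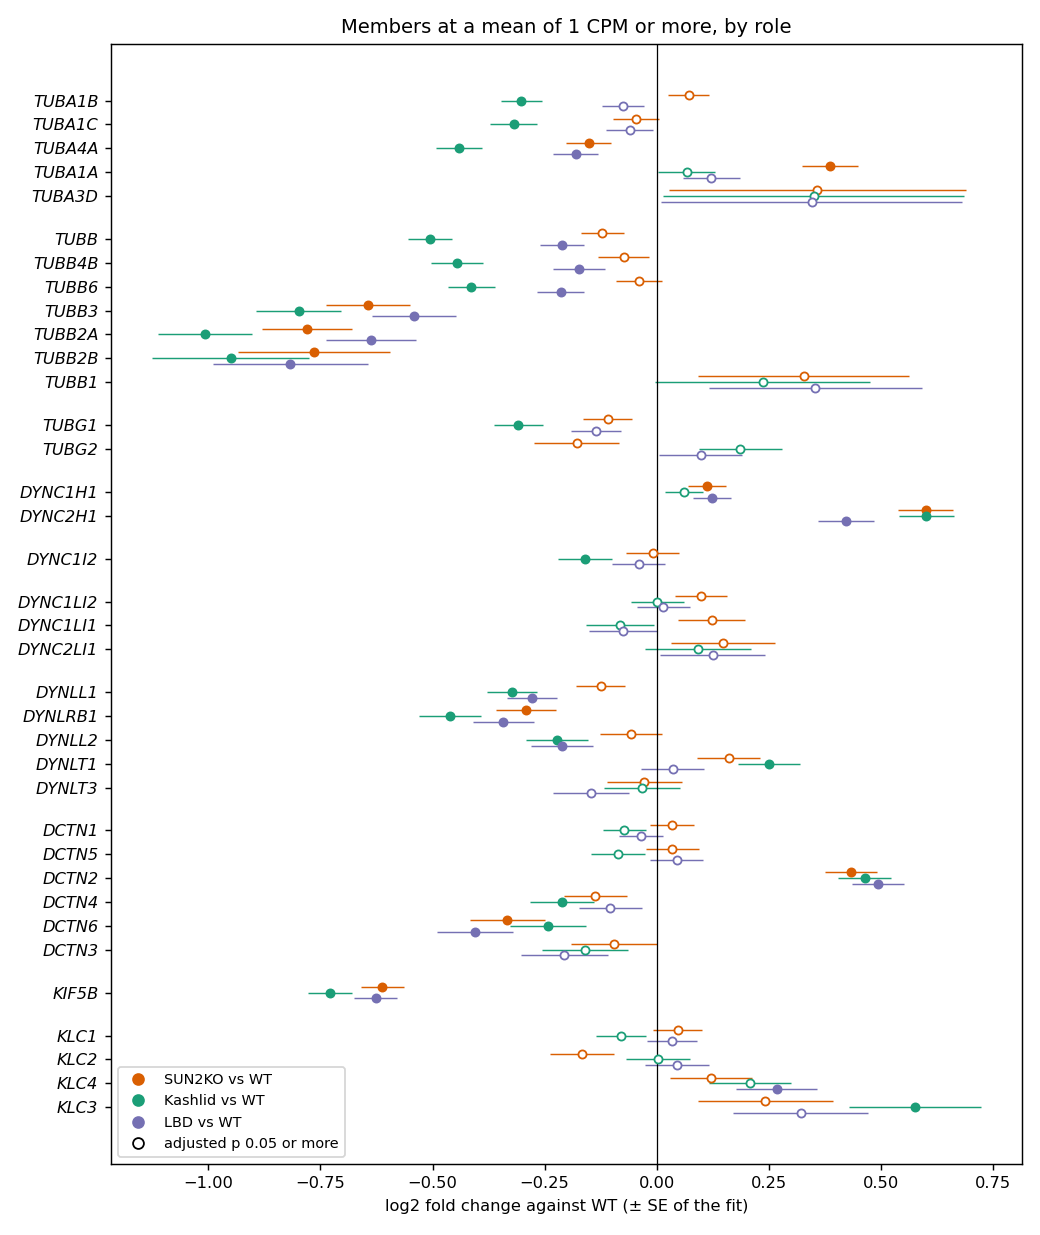
Log2 fold change against WT (x axis, ± SE of the fit over 8 libraries) of the 36 members at a mean of 1 CPM or more, grouped by role from α-tubulins at the top to kinesin light chains at the bottom; filled points passed the test. The Kashlid points of the abundant tubulins lie left of the SUN2KO and LBD points, while TUBB3, TUBB2A, TUBB2B and KIF5B lie to the left and DCTN2 and DYNC2H1 to the right in all 3 lines.

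The members called lower in all 3 lines were TUBA4A, TUBB2A, TUBB2B, TUBB3, DYNLRB1, DCTN6 and KIF5B, and those called higher in all 3 were DCTN2 and DYNC2H1. No member was called higher in one line and lower in another. Of the 39, 14 were called in none of the 3 lines, among them DCTN1, KLC1, KLC2 and the light intermediate chains DYNC1LI1 and DYNC1LI2. The 3 comparisons share the WT libraries, so a high or low WT value enters each of them. The shares of all tested genes with these patterns were not counted, so the patterns are not read as particular to the members.

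Tubulin transcripts carry a signal of their own at the 5′ end of the coding sequence: when soluble tubulin is plentiful, TTC5 recognises the first residues of the emerging tubulin chain and the mRNA is degraded on the ribosome. The coding starts of the tubulins the results turn on are shown for that reason, from the GENCODE 29 transcripts (GRCh38), 30 bases each, with the first 12 bases, the initiator codon and the next codons, in capitals.
TUBA1A: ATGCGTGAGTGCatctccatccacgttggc
TUBA1B: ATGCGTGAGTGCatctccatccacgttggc
TUBA1C: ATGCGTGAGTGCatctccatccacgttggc
TUBA4A: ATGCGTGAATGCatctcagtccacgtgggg
TUBB: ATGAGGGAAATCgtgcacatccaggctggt
TUBB4B: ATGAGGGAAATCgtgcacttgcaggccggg
TUBB6: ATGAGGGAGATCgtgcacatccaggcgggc
TUBB3: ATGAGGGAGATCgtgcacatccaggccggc
TUBB2A: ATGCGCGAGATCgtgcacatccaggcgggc
TUBB2B: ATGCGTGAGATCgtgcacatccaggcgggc
TUBG1: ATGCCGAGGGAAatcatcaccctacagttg
The α-tubulins TUBA1A, TUBA1B and TUBA1C are identical over these 30 bases, and TUBB6 and TUBB3 share the capital bases. TUBG1, the γ-tubulin, is shown as a contrast. These sequences are a description of the transcripts and no measurement here bears on their use.

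Per kilobase of transcript, TUBB and TUBA1B dominated their families in every library. TUBA1B made up 76.2 to 77.9% of the α-tubulin level per kilobase and TUBA1C at least 15.2%. TUBA4A and TUBA1A contributed 3.96 to 4.66% and 1.89 to 2.77%. Of the 100-base stretches of TUBA1B and TUBA1C, 37.2% and 11.5% also occur in another gene's transcript, so reads could be lost or shared there. Among the β-tubulins TUBB made up 63.5 to 64.6%, TUBB4B 25.5 to 26.8% and TUBB6 6.53 to 7.29%. Within that mix the share of TUBB3 was 1.91 and 1.96% in WT and 1.28 to 1.61% in the other libraries. The share of TUBB2A was 1.18 and 1.24% in WT and 0.722 to 0.900% elsewhere. Both thus had their largest shares in the 2 WT libraries, while the WT shares of TUBB lay within the range of the other libraries and those of TUBB4B (25.5 and 25.6%) just below it.

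The abundant tubulins were lowest in Kashlid. TUBA1B, an α-tubulin expressed in most cells (chromosome 12, 49521567 to 49525304 on hg19), had 2816 and 2713 CPM in WT, 2973 and 2835 in SUN2KO, 2705 and 2542 in LBD, and 2111 and 2375 in Kashlid. Both Kashlid libraries lay below all others, and LBD overlapped neither WT nor Kashlid. It fell in Kashlid by a log2 fold change of -0.30 ± 0.046 (SE; adjusted p = 2.19e-05), to 81.1% of WT, and did not pass in SUN2KO (0.07 ± 0.046) or LBD (-0.08 ± 0.046).

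TUBB, the main β-tubulin of these cells (chromosome 6, 30688157 to 30693195), had 2612 and 2407 CPM in WT, 2363 and 2250.5 in SUN2KO, 2208 and 2126 in LBD, and 1663 and 1871 in Kashlid. The WT libraries were the highest and the Kashlid libraries the lowest, with no overlap between Kashlid and any other group. TUBB fell by -0.51 ± 0.049 in Kashlid (adjusted p = 4.84e-08), to 70.4% of WT, and by -0.21 ± 0.049 in LBD (adjusted p = 0.00155, and 0.0552 without WT replicate 1). In SUN2KO it was at -0.12 ± 0.049 (adjusted p = 0.0558, and 0.0188 in the authors' deposited DESeq2 test, where it was called lower).

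Kashlid was also lowest in both libraries for TUBA1C, TUBA4A, TUBB4B and TUBB6, whose values by library are in the plot of abundant tubulins. In Kashlid, TUBA1C fell by -0.32 ± 0.052, TUBA4A by -0.44 ± 0.051, TUBB4B by -0.45 ± 0.058 and TUBB6 by -0.41 ± 0.052. In LBD, TUBA4A (-0.18 ± 0.051), TUBB4B (-0.17 ± 0.058) and TUBB6 (-0.21 ± 0.052) also fell, whereas TUBA1C was at -0.06 ± 0.052. In SUN2KO only TUBA4A among these passed (-0.15 ± 0.050, adjusted p = 0.0224). That call in SUN2KO was lost without WT replicate 1 and without either SUN2KO library (adjusted p = 0.203, 0.0741 and 0.152), and relative to the median of the neighbouring genes (0.0798). The LBD calls of TUBA4A and TUBB4B were lost without WT replicate 1 (adjusted p = 0.103 and 0.235), and also without LBD replicate 2 (0.084 and 0.103) and, for TUBB4B, without LBD replicate 1 (0.0781).

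**Figure D2:**
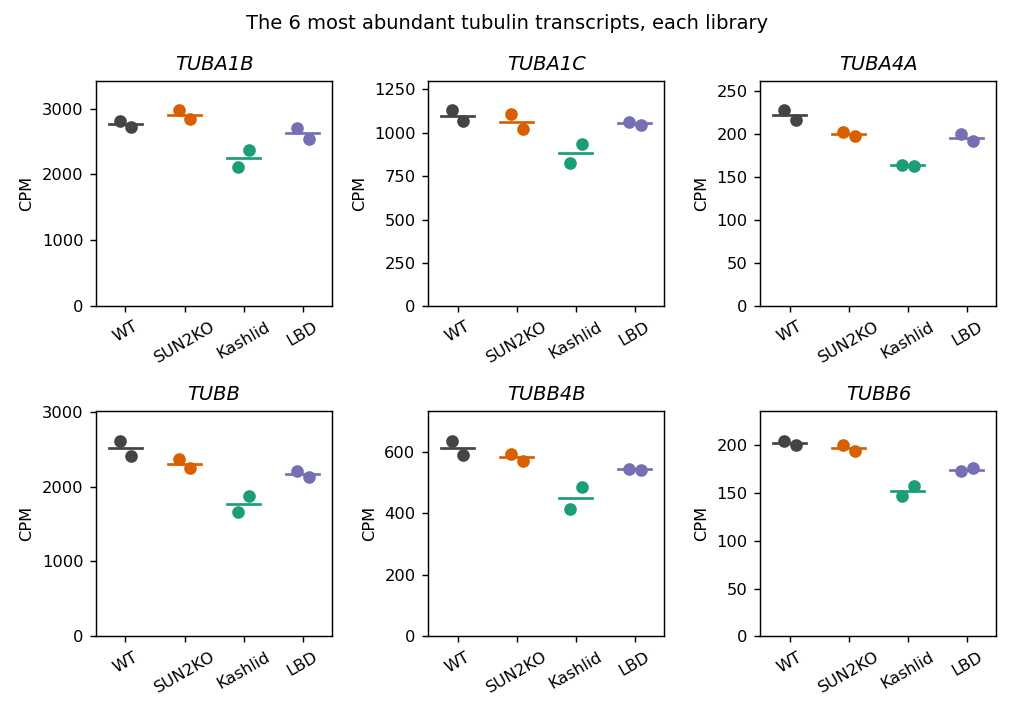
CPM (y axis, linear from 0) of the 6 most abundant tubulin transcripts in each of the 8 libraries; points are libraries in the order replicate 1, replicate 2, and bars are group means. In all 6 panels the 2 Kashlid libraries lie below every other library, and Kashlid replicate 1 lies below replicate 2 in all but TUBA4A.

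Summed over the family, the 9 β-tubulins stood at 3546 and 3283 CPM in WT, 3216 and 3070.1 in SUN2KO, 2991 and 2903 in LBD and 2272 and 2571 in Kashlid. The 9 α-tubulins stood at 4257 and 4095 CPM in WT, 4399 and 4172 in SUN2KO, 4065 and 3878 in LBD, and 3194 and 3572 in Kashlid. Kashlid was lowest in both sums. Both Kashlid libraries were the lowest of the 8 for 13 of 39 tested members, a placing that 8.55% of all tested genes had. The other placings were both Kashlid libraries highest for 3 members (8.33% of all genes), WT highest for 11 (22.7%) and lowest for 4 (21.5%), SUN2KO highest for 4 (8.18%) and lowest for 3 (7.81%), and LBD highest for 1 (5.15%) and lowest for 0 (4.87%). These placings were counted after seeing the data. Ribosomal protein genes moved in each line: of 16, 13 rose and 1 fell in Kashlid, and 12 rose and 1 fell in SUN2KO. In LBD 7 rose and 1 fell. Of all tested genes, 21.7%, 17.5% and 19% rose in the same order, and 22.7%, 19.1% and 21% fell. The 16 summed to 17751 and 17940.0 CPM in Kashlid and 17712 and 17704 in SUN2KO. Their sums were 15494 and 15528 in WT and 15924 and 16386 in LBD. All 16 were detected, and their part in the tubulin result was not tested.

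The altered lines were also compared with each other. Against SUN2KO, 1 member was higher and 9 were lower in Kashlid, where 18% of all genes passed (8.92% higher, 9.13% lower). The 9 were TUBA1A, TUBA1B, TUBA1C, TUBA4A, TUBB, TUBB4B, TUBB6, TUBG1 and DYNLL1. TUBB was lower by -0.38 ± 0.049 and TUBA1B by -0.37 ± 0.046 (adjusted p = 8.01e-06 and 6.6e-06). Both Kashlid libraries were below both SUN2KO libraries for each of these 2 genes.

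Between the 2 truncations, LBD was above Kashlid in 6 members and below it in none, where 2.91% of all genes passed (1.63% higher in LBD, 1.28% lower). All 6 were α- or β-tubulins: TUBB (0.29 ± 0.049), TUBB4B (0.27 ± 0.058), TUBA4A (0.26 ± 0.051), TUBA1C (0.26 ± 0.052), TUBA1B (0.23 ± 0.046) and TUBB6 (0.20 ± 0.053), with adjusted p from 0.00206 to 0.0432. Without Kashlid replicate 1, TUBB stood at 0.21 and TUBB4B at 0.16, and without Kashlid replicate 2 at 0.38 and 0.39. Without LBD replicate 1 they stood at 0.27 and 0.27, and without LBD replicate 2 at 0.32 and 0.28. Only TUBB was called under every one of these. Fitted on the 4 libraries of these groups alone, TUBB and TUBA4A passed.

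Against SUN2KO, LBD was lower in 3 members and higher in none, where 13.5% of all genes passed (6.69% higher, 6.79% lower). These were TUBA1A (-0.27 ± 0.062, adjusted p = 0.00555), TUBB6 (-0.17 ± 0.052, adjusted p = 0.0295) and TUBA1B (-0.15 ± 0.046, adjusted p = 0.0402). TUBA1A alone was called without SUN2KO replicate 1 and without LBD replicate 2. Without SUN2KO replicate 2 none of the 3 was called, and the 1 call there was KLC2, higher in LBD (0.30, adjusted p = 0.0419). TUBA1B and TUBB6 did not pass in DESeq2 (adjusted p = 0.106 and 0.0573). Without SUN2KO replicate 2, TUBA1A had an adjusted p of 0.0729.

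TUBA1A, an α-tubulin known for its abundance in developing neurons, did not follow the other tubulins. It is described here after its values were seen. It had 81.6 and 92.5 CPM in WT, 112 and 115 in SUN2KO, 94.3 and 95.1 in LBD, and 90.1 and 92.2 in Kashlid. The SUN2KO libraries stood above the rest, and the Kashlid values lay within the range of WT. It rose in SUN2KO by 0.39 ± 0.062 (adjusted p = 5.29e-05) and was at 0.07 ± 0.063 in Kashlid and 0.12 ± 0.063 in LBD. TUBA1A and TUBA1B have 97.2% identical coding bases, and 18.3% of the 100-base stretches of the TUBA1A transcript also occur in another gene's transcript, so reads could be lost or shared between them.

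Genes near the TUBA1 cluster were raised in all 3 lines. The 47 other tested genes of the 5 Mb window that holds it (45 to 50 Mb of chromosome 12) had median log2 fold changes of 0.22 in SUN2KO, 0.28 in Kashlid and 0.21 in LBD around TUBA1B. With the window median taken out as an offset, TUBA1B stood at -0.15 (adjusted p = 0.0207), -0.59 (3.74e-09) and -0.28 (6.96e-05) in the same order, so that its value in SUN2KO turned negative. TUBB, whose 120 neighbours in 30 to 35 Mb of chromosome 6 had medians of 0.11, 0.18 and 0.20, stood at -0.23, -0.68 and -0.41. Taken relative to their neighbours, both genes passed as lower in all 3 lines, as did TUBA1C (-0.27, -0.60 and -0.27). TUBA1A relative to its neighbours was higher in SUN2KO (0.17, adjusted p = 0.0417) and lower in Kashlid (-0.22, adjusted p = 0.0088).

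The minor β-tubulins TUBB2A, TUBB2B and TUBB3 showed a different pattern: each fell in all 3 lines. TUBB2A and TUBB2B are near-identical isotypes abundant in neurons and lie next to each other on chromosome 6, and TUBB3 is the neuronal β-tubulin whose raised expression in tumours has been linked to resistance to taxanes. TUBB2A (3153902 to 3157783) had 28.6 and 27.7 CPM in WT, 15.9 and 16.9 in SUN2KO, 18.3 and 17.9 in LBD, and 13.6 and 14.4 in Kashlid. The WT libraries stood well apart and the altered lines did not overlap one another. Its log2 fold changes were -0.78 ± 0.10, -1.01 ± 0.10 and -0.64 ± 0.10 (adjusted p = 4.01e-06, 1.24e-07 and 3.6e-05), which left 58.2, 49.8 and 64.3% of WT.

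TUBB2B (3224495 to 3227968) had 9.21 and 8.92 CPM in WT, 5.14 and 5.53 in SUN2KO, 5.26 and 5.02 in LBD, and 4.45 and 4.93 in Kashlid, from raw counts of 77 to 157. The altered lines lay together below WT, LBD falling inside the range of SUN2KO or just under it. The log2 fold changes were -0.76 ± 0.17, -0.95 ± 0.17 and -0.82 ± 0.17 (adjusted p = 0.00129, 0.000151 and 0.00071). TUBB2A and TUBB2B have 98.13% identical coding bases, and 56.4% and 46.2% of their 100-base stretches occur in another gene's transcript. How the counting handled reads that fit both is not given in the sources used here, and the 2 genes are not independent readings.

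The RefSeq promoters of TUBB2A and TUBB2B are shown because the 2 genes moved together: the 250 bases before each start on the GRCh38.p14 build, minus strand, 5′ to 3′ along the gene. Capitals mark matches on either strand to TATAAA (the TATA box), to CCAAT (the CCAAT box), to GGGCGG (the GC box), to TGACGTCA (the cyclic AMP response element, CRE) and to TGACG (a partial CRE). TGACG lies inside the full CRE, and matches may overlap.
TUBB2A, chr6:3157545-3157794: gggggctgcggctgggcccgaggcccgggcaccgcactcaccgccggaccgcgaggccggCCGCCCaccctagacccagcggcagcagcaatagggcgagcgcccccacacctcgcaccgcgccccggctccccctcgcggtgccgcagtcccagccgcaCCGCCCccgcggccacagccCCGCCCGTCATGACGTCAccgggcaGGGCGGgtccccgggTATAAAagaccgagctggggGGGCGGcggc
TUBB2B, chr6:3227654-3227903: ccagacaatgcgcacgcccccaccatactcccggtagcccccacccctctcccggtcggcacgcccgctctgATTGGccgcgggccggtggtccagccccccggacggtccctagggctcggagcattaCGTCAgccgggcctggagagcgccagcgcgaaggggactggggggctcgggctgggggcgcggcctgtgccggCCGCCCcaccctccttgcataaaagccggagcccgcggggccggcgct
TUBB2A has 1 TATA box, 5 GC boxes, 1 full and 3 partial CRE matches, and TUBB2B has 1 CCAAT box, 1 GC box and 1 partial CRE. Of 35116 promoters in that table cut to the same 250 bases, 10.7% hold the TATA box, 32.0% the CCAAT box, 42.6% the GC box, 1.6% the full CRE and 21.2% the partial CRE. The GC box and the partial CRE are the motifs found in both. A match is not shown to be a site.

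TUBB3 (chromosome 16, 89989687 to 90002505) had 51.2 and 48.7 CPM in WT, 34.2 and 29.8 in SUN2KO, 35.6 and 33.1 in LBD, and 26.0 and 31.4 in Kashlid. WT stood above all other libraries and the altered lines overlapped in part. The log2 fold changes were -0.64 ± 0.093, -0.80 ± 0.095 and -0.54 ± 0.093 (adjusted p = 1.54e-05, 8.73e-07 and 9.14e-05). Its 56 window neighbours had medians of -0.22, -0.25 and -0.25, and relative to them TUBB3 stood at -0.42, -0.54 and -0.29 and passed in each line. In the transcript set, 89.0% of its 100-base stretches also occur in another transcript, chiefly that of AC092143.1, a locus that overlaps it.

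Since TUBB3, TUBB2A and TUBB2B are known as neuronal isotypes, neuronal markers were read beside them. Of 7 markers, STMN2 and ELAVL4 were at 0 in all libraries, 5 could be tested, and 1 rose and 1 fell in each line. Their summed level was 16.3 and 18.2 CPM in WT, 10.6 and 11.6 in SUN2KO, 14.5 and 13.9 in LBD, and 14.6 and 13.4 in Kashlid. SNAP25 was the largest part of this sum, at 11.8 and 14.1 CPM in WT and 4.17 and 4.62 in SUN2KO. It fell in each line (-1.56, -0.56 and -0.77), while RBFOX3, at a mean of 1.51 CPM, rose in each (1.24, 1.05 and 1.52). Without SNAP25 the sum was lowest in WT, at 4.52 and 4.09 CPM, against 4.81 to 7.29 in the other libraries. Over all 5 tested markers, SNAP25 included, the median log2 fold change was 0.74, 0.17 and 0.18. The part of these markers in the β-tubulin result was not tested.

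**Figure D3:**
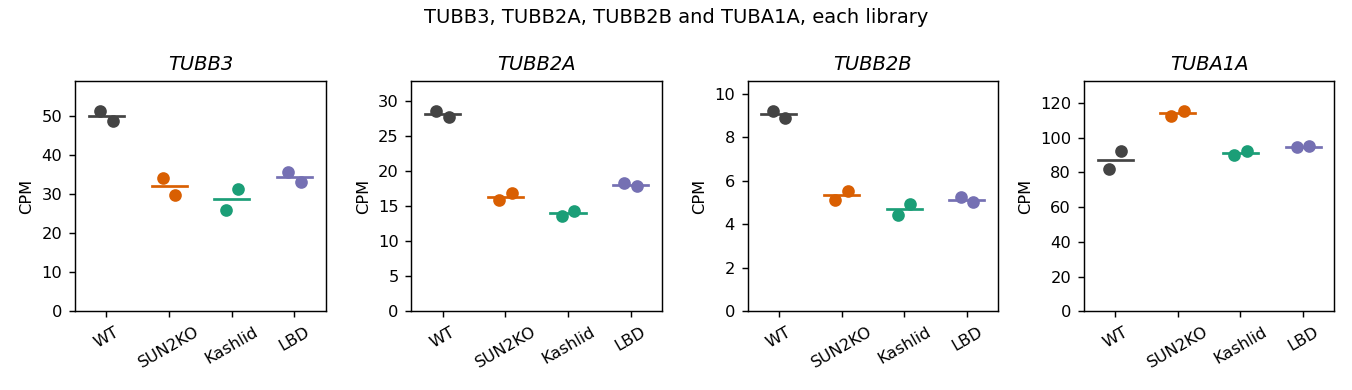
CPM (y axis, linear from 0) of TUBB3, TUBB2A, TUBB2B and TUBA1A in each of the 8 libraries, with group means as bars. For TUBB3, TUBB2A and TUBB2B the 2 WT libraries lie above all others, and for TUBA1A the 2 SUN2KO libraries do.

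Other β- and α-tubulins were scarce. TUBB4A, a brain-enriched isotype, had raw counts of 1 and 7 in WT, 8 and 8 in SUN2KO, 12 and 12 in LBD, and 14 and 25 in Kashlid. The Kashlid counts were the highest, and the fitted log2 fold change there was 2.26 ± 0.64 (adjusted p = 0.00648). It was lost without WT replicate 1 (1.498, adjusted p = 0.109) and without Kashlid replicate 2 (1.77, adjusted p = 0.0852). TUBB1, TUBA3D, TUBA8 and TUBA4B had means of 4.25, 1.93, 0.606 and 0.561 CPM and passed in no comparison.

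The γ-tubulins diverged in Kashlid. TUBG1, the γ-tubulin of most cells (chromosome 17, 40761358 to 40767256), had 143 and 141 CPM in WT, 133 and 130.4 in SUN2KO, 126 and 133 in LBD, and 112 and 118 in Kashlid. Kashlid lay below all other libraries and WT above them. TUBG1 fell in Kashlid by -0.31 ± 0.055 (adjusted p = 0.000124), with -0.11 ± 0.055 in SUN2KO and -0.14 ± 0.055 in LBD (adjusted p = 0.127 and 0.0547). Its neighbour TUBG2 was higher in Kashlid than in SUN2KO (0.37 ± 0.093, adjusted p = 0.00809, the only member higher in that comparison) but passed in no comparison with WT. That TUBG2 call was lost without SUN2KO replicate 1 (adjusted p = 0.0631) or 2 (0.060), and the lower TUBG1 level in Kashlid than in SUN2KO was lost without either of these or Kashlid replicate 1 (0.0648 to 0.113). TUBG1 and TUBG2 have 94.69% identical coding bases, and TUBG1 overlaps FAM134C.

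Dynein heavy chains hold the motor domain. DYNC1H1, the heavy chain of cytoplasmic dynein 1, had 1090.5 and 1037 CPM in WT, 1149 and 1149 in SUN2KO, 1199.9 and 1117 in LBD, and 1093 and 1127 in Kashlid. WT was lowest, by a narrow margin. The rise was 0.11 ± 0.042 in SUN2KO and 0.12 ± 0.042 in LBD (adjusted p = 0.0442 and 0.0247), with 0.06 ± 0.042 in Kashlid. Both calls were lost without WT replicate 2 (adjusted p = 0.349 and 0.218), and further without either SUN2KO library (0.118 and 0.140) or LBD replicate 1 (0.269). With the window offset they stood at 0.06 and 0.02 and did not pass, and the SUN2KO call was also lost in DESeq2 (0.0832) and with median-ratio factors (0.0503).

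DYNC2H1, the heavy chain of the dynein that moves cargo within cilia (chromosome 11, 102980160 to 103350591), had 63.3 and 64.8 CPM in WT, 97.2 and 96.9 in SUN2KO, 89.2 and 82.3 in LBD, and 95.6 and 98.7 in Kashlid. WT lay below every other library, and LBD below SUN2KO and Kashlid. The log2 fold changes were 0.60 ± 0.062, 0.60 ± 0.062 and 0.42 ± 0.062 (adjusted p = 2.05e-07, 1.24e-07 and 1.74e-05). Its light intermediate chain partner DYNC2LI1 did not pass in any line (0.15, 0.09 and 0.12). The 13 other tested genes in the window of DYNC2H1 had medians of 0.32, 0.13 and 0.17. Of 5 markers of ciliated cells FOXJ1 was at 0 and 2 were tested; the list summed to 12.7 to 13.6 CPM in WT, 14.2 to 14.3 in SUN2KO, 13.2 to 13.7 in Kashlid and 10.3 to 11.1 in LBD. CCDC39 rose in Kashlid (0.43), DNAH5 fell in Kashlid and LBD (-0.74 and -0.73), and their part in the DYNC2H1 result was not tested.

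The intermediate and light intermediate chains, which hold the dynein complex together and bind dynactin and adaptors, moved little. DYNC1I2 had 111 and 115 CPM in WT, 114 and 111 in SUN2KO, 114 and 106 in LBD, and 98.1 and 105 in Kashlid. It fell in Kashlid by -0.16 ± 0.060 (adjusted p = 0.0345), a call lost without WT replicate 1 or 2 (0.0646 and 0.201), without Kashlid replicate 1 (0.200) and in DESeq2 (0.0623). DYNC1LI2 had 255 and 234 CPM in WT, 257 and 266 in SUN2KO, 259 and 235 in LBD, and 256 and 234 in Kashlid, with overlapping groups and no call. DYNC1LI1 (0.12, -0.08 and -0.08 in the order SUN2KO, Kashlid, LBD) also did not pass.

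Among the dynein light chains, which bind the intermediate chains, 3 of 5 fell in Kashlid, 3 in LBD and 1 in SUN2KO, and 1 rose in Kashlid. Of all tested genes, 22.7%, 21% and 19.1% fell in the same order, and 21.7% rose in Kashlid. DYNLL1, a light chain that many other proteins also bind, had 183 and 173 CPM in WT, 166 and 161 in SUN2KO, 147 and 147 in LBD, and 137 and 148 in Kashlid. WT was highest, and Kashlid overlapped LBD. DYNLL1 fell in Kashlid by -0.32 ± 0.055 and in LBD by -0.28 ± 0.055 (adjusted p = 7.74e-05 and 0.000415), with -0.12 ± 0.055 in SUN2KO (adjusted p = 0.0816). It was lower in Kashlid than in SUN2KO (-0.20 ± 0.055, adjusted p = 0.016), a call lost without either SUN2KO library (0.143 and 0.0542) or Kashlid replicate 1 (0.127). DYNLL1-AS1 overlaps DYNLL1, and the strand setting of the counting is not given in the sources used here.

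DYNLRB1, the roadblock light chain, fell in all 3 lines (-0.29 ± 0.067, -0.46 ± 0.069 and -0.34 ± 0.068). Its 62 neighbours had medians of -0.16, -0.18 and -0.17, and relative to them it passed in Kashlid (-0.28) but not in SUN2KO (-0.13, adjusted p = 0.151) or LBD (-0.18, adjusted p = 0.0501). In SUN2KO the call was also lost without SUN2KO replicate 1 (adjusted p = 0.0679). DYNLL2 fell in Kashlid and LBD (-0.22 ± 0.070 and -0.21 ± 0.070), both lost without WT replicate 1 (adjusted p = 0.218 and 0.276), the first without Kashlid replicate 2 (0.0627) and the second without either LBD library (0.0867 and 0.0857). DYNLT1, a light chain of the Tctex type, rose in Kashlid (0.25 ± 0.069), which was lost relative to its window neighbours (0.12, adjusted p = 0.194) and in the fit that left out WT replicate 1 (0.0867). DYNLT3 did not pass.

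Dynactin members split. DCTN1, the large p150 subunit that binds microtubules and dynein, had 249.9 and 252 CPM in WT, 255 and 259 in SUN2KO, 251 and 239 in LBD, and 235 and 243 in Kashlid and did not pass. Its groups differed by a few percent. DCTN2, the dynamitin subunit of the shoulder, whose overexpression takes dynactin apart, had 76.0 and 72.3 CPM in WT, 99.6 and 100.5 in SUN2KO, 104 and 105 in LBD, and 101 and 103 in Kashlid. WT lay below all other libraries, and the altered lines lay together. It rose by 0.43 ± 0.058, 0.46 ± 0.058 and 0.49 ± 0.058 (adjusted p = 6.08e-06, 1.73e-06 and 9.86e-07). Its 74 window neighbours had medians of 0.06, 0.06 and 0.12, and relative to them it stood at 0.38, 0.40 and 0.37 and passed in each line. DCTN2 is given in full after its values were seen, and it overlaps MBD6 on the map.

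DCTN6, the p27 subunit of the pointed end of dynactin, fell in all 3 lines (-0.33 ± 0.084, -0.24 ± 0.084 and -0.40 ± 0.085). The 11 other tested genes of its window had medians of -0.21, -0.36 and -0.33, close to these values. In SUN2KO the call was lost without SUN2KO replicate 2 (adjusted p = 0.0947), and in Kashlid without WT replicate 1, WT replicate 2 or Kashlid replicate 1 (0.112, 0.0694 and 0.126) and in DESeq2 (0.0604). DCTN4 (p62) fell in Kashlid by -0.21 ± 0.071, lost without WT replicate 1 or 2 (0.101 and 0.063), without Kashlid replicate 2 (0.164) and on library size alone (0.0524). DCTN3 and DCTN5 did not pass, with changes from -0.21 to 0.04.

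KIF5B is the kinesin-1 heavy chain of most cells, while KIF5A and KIF5C belong to neurons. KIF5B (chromosome 10, 32297938 to 32345371) had 278 and 273 CPM in WT, 181 and 180.3 in SUN2KO, 177 and 180.5 in LBD, and 165 and 168 in Kashlid. WT stood far above the other libraries, which lay close together with Kashlid lowest. The log2 fold changes were -0.61 ± 0.048, -0.73 ± 0.049 and -0.63 ± 0.048 (adjusted p = 4.81e-09, 2.28e-10 and 2.36e-09), and KIF5B supplied at least 99.8% of the counts of the 3 heavy chains in every library.

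Its chromosomal neighbours were lower as well. The 11 other tested genes between 30 and 35 Mb of chromosome 10 had median log2 fold changes of -0.63 in SUN2KO, -0.48 in Kashlid and -0.57 in LBD. In SUN2KO and LBD this median is close to the value of KIF5B itself (-0.61 and -0.63), and in Kashlid KIF5B was lower than the median by 0.25. With so few genes in the window, fewer than the 15 required, no fit with the offset was made for it. The copy number of this region in the 4 lines was not measured here.

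**Figure D4:**
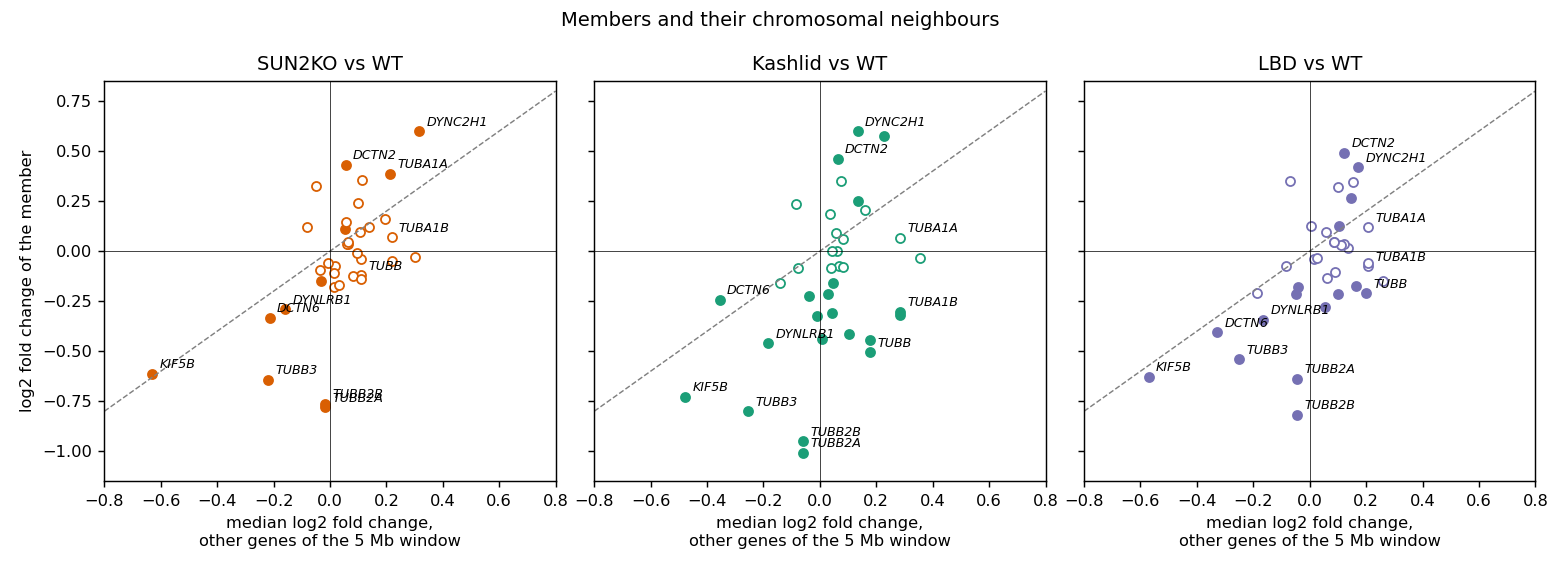
Log2 fold change of each of the 36 members at 1 CPM or more (y axis) against the median log2 fold change of the other tested genes in its 5 Mb window (x axis), a panel for each line against WT; filled points passed the test and the dashed line marks equal values. KIF5B lies near the dashed line in SUN2KO and LBD, TUBB2A and TUBB2B lie far below it at a window median near 0, and in Kashlid TUBB and TUBA1B lie below 0 where their neighbours lie above it.

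Kinesin light chains, which bind cargo, did not follow KIF5B. KLC1 had 149 and 138 CPM in WT, 144 and 151 in SUN2KO, 148 and 145 in LBD, and 135 and 136 in Kashlid, and it passed in no comparison. Kashlid was lowest by a small margin. KLC3 (chromosome 19, 45843998 to 45854778) had 8.26 and 11.99 CPM in WT, 11.9 and 12.1 in SUN2KO, 12.8 and 12.6 in LBD, and 14.3 and 15.9 in Kashlid. The WT libraries differed from each other by more than those of any other group. KLC3 rose in Kashlid by 0.57 ± 0.15 (adjusted p = 0.00327), a call lost without WT replicate 1 (0.33, adjusted p = 0.113) and relative to its 113 window neighbours (0.35, adjusted p = 0.0667), and KLC3 overlaps ERCC2.

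KLC4 rose in LBD by 0.27 ± 0.091 (adjusted p = 0.0239). That call was lost without WT replicate 1 or either LBD library (0.167, 0.115 and 0.0526), in DESeq2 (0.0663) and with the window offset (0.341). KLC2 stood at -0.17, 0.00 and 0.04 and did not pass.

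The 7 members left untested were TUBA3C, TUBA3E, TUBB8, DYNC1I1, DYNLRB2, KIF5A and KIF5C. TUBA3C had 0 counts in all 8 libraries, which allows at most 3 counts, or 0.159 to 0.181 CPM, in each. The others had 1 to 35 counts over all 8 libraries. KIF5A and KIF5C, the neuronal heavy chains, had 14 and 4 counts in total, and DYNC1I1, the neuronal intermediate chain, had 1. These limits cover counting error only.

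Genes that work with the members were read as lists. The number of calls in each list stands beside the share of all tested genes that passed. Against WT that share was 36.7% (SUN2KO), 44.5% (Kashlid) and 40% (LBD). It was 18% for Kashlid against SUN2KO. Of 21 genes for tubulin folding (the CCT chaperonin, prefoldin, the tubulin cofactors and TTC5), 9 rose and 1 fell in SUN2KO, 3 rose and 5 fell in Kashlid, and 4 rose and 3 fell in LBD, with medians of 0.10, 0.02 and 0.03. TBCC, a cofactor that helps to release assembled tubulin dimers, rose in each line (0.65, 0.52 and 0.55). Against SUN2KO, 7 of the 21 were lower in Kashlid and 1 higher, led by the chaperonin subunits CCT2 (-0.30 ± 0.047), CCT5 (-0.28 ± 0.043) and CCT4 (-0.25 ± 0.047). TTC5, the factor of the tubulin feedback, rose in SUN2KO (0.37 ± 0.11, adjusted p = 0.0143) and was at 0.08 ± 0.12 in Kashlid and 0.28 ± 0.11 in LBD (adjusted p = 0.593 and 0.0523).

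Of 13 genes of the γ-tubulin ring, 2 rose and 4 fell in SUN2KO, 4 rose and 3 fell in Kashlid and 3 rose and 4 fell in LBD. TUBGCP2, a core ring subunit, rose in each line (0.67 ± 0.060, 0.69 ± 0.060 and 0.78 ± 0.060). MZT1, a small ring protein, fell in each line (-0.37, -0.19 and -0.35). Among 20 tested tubulin-modifying enzymes, 2 rose and 2 fell in SUN2KO, 5 rose and 3 fell in Kashlid and 3 rose and 3 fell in LBD. ATAT1, the α-tubulin acetyltransferase, rose in Kashlid (0.68 ± 0.13) and LBD (0.51 ± 0.13), and HDAC6, a tubulin deacetylase, was higher in Kashlid than in SUN2KO (0.49 ± 0.089).

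Of 38 tested microtubule-binding genes, 2 rose and 6 fell in SUN2KO, 5 rose and 12 fell in Kashlid and 3 rose and 11 fell in LBD. KATNAL2, a katanin-like protein, fell in each line by -2.63 ± 0.20, -3.12 ± 0.21 and -2.76 ± 0.20. EML1 fell in Kashlid (-1.26 ± 0.12) and LBD (-0.74 ± 0.12), and LBD was above Kashlid by 0.51 ± 0.13 (adjusted p = 0.0336). MAP1B, a structural microtubule-associated protein, rose in Kashlid (1.22 ± 0.21) and LBD (1.07 ± 0.21).

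Of 10 tested dynein and dynactin subunits not caught by the symbol rule, 2 rose and 4 fell in SUN2KO, 1 rose and 3 fell in Kashlid and 2 rose and 4 fell in LBD, where 36.7%, 44.5% and 40% of all genes passed. The capping protein CAPZA2, which caps the dynactin filament and also actin, fell by -0.44 ± 0.064, -0.66 ± 0.065 and -0.51 ± 0.064. CAPZB fell as well (-0.18 ± 0.057, -0.44 ± 0.058 and -0.34 ± 0.058). Other genes of this list did not fall. ACTR1A had 98.1 and 92.7 CPM in WT, 116 and 116 in SUN2KO, 122 and 120 in LBD, and 107 and 106 in Kashlid. CAPZA1 had 274 and 276 CPM in WT, 305 and 295 in SUN2KO, 314 and 298 in LBD, and 275 and 294 in Kashlid. Of 24 tested regulators and adaptors of dynein, 4 rose and 4 fell in SUN2KO, 6 rose and 7 fell in Kashlid and 7 rose and 5 fell in LBD. CCDC64, the adaptor now called BICDL1, rose by 0.64 ± 0.13, 1.18 ± 0.13 and 1.23 ± 0.13, and it was higher in both truncations than in SUN2KO (0.55 ± 0.12 and 0.60 ± 0.12, adjusted p = 0.00252 and 0.00141).

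Of 21 tested kinesin-1 partners, 2 rose and 7 fell in SUN2KO, and 4 rose and 7 fell in each truncation. NEK1, a protein kinase, fell in each line (-0.41, -0.51 and -0.45). In the list of 15 tested genes of the nuclear envelope link, 6 rose and 4 fell in SUN2KO, 6 rose and 4 fell in Kashlid and 5 rose and 4 fell in LBD, SUN2 among those that fell. SYNE2, which encodes nesprin-2, rose in SUN2KO (0.45 ± 0.057) and Kashlid (0.34 ± 0.058) and was lower in LBD than in SUN2KO (-0.32 ± 0.057, adjusted p = 0.000532) and Kashlid (-0.21 ± 0.057, adjusted p = 0.0478). These pathway values are not tests of the lists.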

How the data were processed

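Per the labels, total RNA of each sample was sequenced as paired-end reads. Per the submitters' processing notes, the authors used Trim Galore, STAR 2.7.1a, hg19, bedtools 2.24.0, HTSeq and DESeq2. The deposited values are raw counts of reads per gene (25369 genes, 8 libraries); the sources used here give neither the annotation version nor the strand setting. The authors' deposited tables of comparisons with WT also hold log2 fold changes and p-values, with no column names, identified by their match to recomputed values and used as a check; 12 unnamed per-library columns were not used.

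The fit was made with edgeR 4.0.16 (R 4.3.3, limma 3.58.1): TMM factors, filterByExpr (14016 genes, 39 members), 1 term per group over all 8 libraries, 4 residual degrees of freedom, two-sided quasi-likelihood tests, and Benjamini-Hochberg adjusted p under 0.05 over all tested genes for each of 6 comparisons. SEs come from the fold change and the F statistic. No entry lacked a gene name (0 of 25369). The test was also run on counts simulated from this fit, for SUN2KO against WT. It recovered 82 of 100 genes changed 1.5-fold and 100 of 100 changed 2-fold, with 16 false calls. The changed genes were drawn from those above 5 CPM in WT, so these rates do not cover scarce members such as TUBB4A. Far fewer genes were changed than were called in the data. Smaller changes were not simulated. Members and pathway lists were chosen with earlier results of these data known. Values per library are given for members that passed with an absolute log2 fold change of at least 0.5 and for the most abundant member of each role; from each list up to 3 passing genes at 5 CPM or more, in order of size, were named per comparison, of which a selection is printed. DCTN2, TUBA1A, the per-library values of further members outside that rule, TTC5, ACTR1A, CAPZA1 and the named single markers were singled out after their values were seen.

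Windows are 5 Mb of hg19, and the offset fit used windows of at least 15 tested genes, smaller windows being given by their median only. Alternatives were DESeq2 1.42.0, factors by median ratio or by library size, a looser (1 count) and a tighter (at least 5 CPM in 2 libraries) filter, the 2 groups alone, a replicate block, the window offset, a 1.5-fold call and leaving out each library. Transcripts came from GENCODE 29, all 46 members matched, and promoters from RefSeq, 41 matched. Levels per kilobase use the length of a single coding transcript per gene.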

Additional observations from a re-analysis of the deposited data

Results flagged for a closer look

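Differences between the altered lines, tested directly in the 8-library fit, were flagged for 19 member values; in each, the effects of 2 lines against WT differed. Kashlid was below SUN2KO in TUBA1B (-0.37), TUBA1C (-0.27), TUBA4A (-0.29), TUBA1A (-0.32), TUBB (-0.38), TUBB4B (-0.37), TUBB6 (-0.37), DYNLL1 (-0.20) and TUBG1 (-0.20), and above it in TUBG2 (0.37). LBD was below SUN2KO in TUBA1B (-0.15), TUBA1A (-0.27) and TUBB6 (-0.17). LBD was above Kashlid in TUBA1B (0.23), TUBA1C (0.26), TUBA4A (0.26), TUBB (0.29), TUBB4B (0.27) and TUBB6 (0.20). These are log2 fold changes, and both libraries of the lower line lay below both of the higher line for TUBB in the comparisons with Kashlid.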

How the results depend on the processing

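Of 68 member calls in the 6 comparisons, 39 were kept under every alternative run for them and 29 were lost under at least 1. None of the 68 changed direction. KIF5B, DYNC2H1 and DCTN6 lay in windows with too few genes for an offset. The window alternative left their fold changes unchanged and is no check of their calls. A call only at 1.5-fold or more left 5 members in SUN2KO, 6 in Kashlid and 3 in LBD against WT, and 0 in each comparison among the altered lines. For LBD against SUN2KO (3 members) DESeq2 gave 1, the 2 groups alone 7, the replicate block 6 and the window offset 5, and for LBD against Kashlid (6 members) the 2 groups alone gave 2; the cause was not tested. The members called for LBD against SUN2KO also changed in kind, KLC2 being higher in LBD without SUN2KO replicate 2. Leaving out each library gave 8 to 12 members in SUN2KO, 15 to 21 in Kashlid and 11 to 18 in LBD against WT, 7 to 11 for Kashlid against SUN2KO, 1 to 4 for LBD against SUN2KO and 1 to 8 for LBD against Kashlid.

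Same-numbered libraries showed little deviation in common: deviations from the group means correlated by -0.007 to 0.084. Whether they shared a batch is not given in the labels. With the replicate block none of the 68 calls was lost, and more members were called for LBD against SUN2KO. The authors' deposited tables called 12, 16 and 14 members in SUN2KO, Kashlid and LBD, of which 11, 16 and 14 were called here in the same direction. The call not made here was TUBB, lower in SUN2KO (adjusted p = 0.0188 in the authors' DESeq2 test and 0.0558 here). With 2 libraries a group, changes of about 0.1 on the log2 scale lie at the limit of what passed, and counts under 30 limit TUBB4A.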
